A study of Mus musculus with 10 samples.

Results

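CXC chemokines are small secreted proteins that bind heparan sulfate and signal through G protein-coupled receptors to draw leukocytes along a gradient. In epithelia they split by role: ligands that attract neutrophils through Cxcr2 and are driven by NF-kB, ligands that attract T and NK cells through Cxcr3 and are driven by interferon, and ligands made by mucosal surfaces. Here 10 mouse CXC chemokine genes were followed in sorted prostate luminal epithelial cells: Cxcl1, Cxcl2, Cxcl5 and Cxcl15 as neutrophil-attracting ligands, Cxcl9 and Cxcl10 as interferon-induced ligands, Cxcl14, Cxcl16 and Cxcl17 as mucosal ligands, and the homeostatic ligand Cxcl12. They were taken by symbol from 30142 named genes on the array, and each had exactly 1 row annotated with that symbol alone, so no row had to be chosen by its mean. The list was drawn up with earlier results of these data known, so the number of its genes that changed is a description and not independent evidence.

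All mice were male and carried the Hoxb13-rtTA transgene with a TetO-H2BGFP reporter, and all drank doxycycline at 2 mg/ml for 1 week before death, which marks cells in which the Hoxb13 promoter is active. The regenerated group (n = 4) had been castrated by orchiectomy at 12 weeks of age, left for 6 weeks of regression and then given testosterone for 4 weeks from silastic implants. The castrated group (n = 3) had the same surgery and 6 weeks of regression without testosterone, and the intact group (n = 3) was untreated. Sorted cells were GFP positive, CD24 positive and CD49f intermediate, and the gate removed cells bearing CD45, CD11b or a macrophage antigen. Each sample was hybridised to 1 Affymetrix ClariomD (MTA-1.0) array. Samples are labelled as biological replicates without saying whether 1 animal or a pool was sorted, so the spread behind each p-value is that between sorted samples and may not be that between mice. No group was castrated for the longer time without testosterone, so testosterone cannot be told apart from time since castration and age.

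Values are log2 RMA intensities, given with the SD between arrays, and differences are log2 differences with the standard error (SE) from limma, called where the Benjamini-Hochberg adjusted p over all 30142 genes was under 0.05. Levels are compared between groups within a gene, never between genes. Array medians ran from 4.12 to 4.22. The highest background control row lay between 4.66 and 5.58 in 9 arrays and at 6.40 in castrated replicate 3, and values under it are described as under background. Luminal markers were present in every array, with Epcam between 13.85 and 14.71. Hoxb13, whose promoter drives the reporter, was 9.47 ± 0.86 in regenerated, 7.74 ± 0.20 in castrated and 10.39 ± 0.18 in intact arrays.

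Some of the genes lie in groups on chromosome 5, and the promoters searched differ in short motifs. The mucosal ligands and Cxcl12 lie in neither run described here, with Cxcl12 on chromosome 6 and Cxcl14 on chromosome 13. The neutrophil-attracting members lie in a chromosome 5 run that holds, in order, Cxcl5, Ppbp, Pf4, Cxcl3, Cxcl15, Cxcl1 and Cxcl2, and Cxcl9 and Cxcl10 lie in a second run on the same chromosome with Art3 between them, per RefSeq (GRCm38.p6). Promoter sequences of 250 bases before to 50 bases after the start were listed there for 7 of the 10 genes. Given here are those of 5 that passed the test in at least 1 comparison, with capitals marking 10-base kappaB matches (GGGA, any base, TTTCC), 9-base kappaB matches (GGGA, any base, TTCC) and interferon response element matches (GAAA, any 2 bases, GAAA), searched on both strands. They show which of these 5 genes hold a match. In Cxcl1 (chr5:90890995-90891294, plus strand), Cxcl2 (chr5:90903649-90903948, plus) and Cxcl15 (chr5:90794284-90794583, plus) the sequences were:
Cxcl1: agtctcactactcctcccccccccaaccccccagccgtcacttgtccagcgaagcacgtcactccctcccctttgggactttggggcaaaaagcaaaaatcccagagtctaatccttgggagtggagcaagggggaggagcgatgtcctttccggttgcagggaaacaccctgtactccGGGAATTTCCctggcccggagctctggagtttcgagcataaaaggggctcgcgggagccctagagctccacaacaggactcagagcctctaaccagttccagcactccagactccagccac
Cxcl2: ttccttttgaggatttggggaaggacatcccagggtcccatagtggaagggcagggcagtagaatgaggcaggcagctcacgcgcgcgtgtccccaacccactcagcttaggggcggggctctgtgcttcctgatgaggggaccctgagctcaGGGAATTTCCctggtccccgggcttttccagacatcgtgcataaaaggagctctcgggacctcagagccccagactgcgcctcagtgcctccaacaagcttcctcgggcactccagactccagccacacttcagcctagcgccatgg
Cxcl15: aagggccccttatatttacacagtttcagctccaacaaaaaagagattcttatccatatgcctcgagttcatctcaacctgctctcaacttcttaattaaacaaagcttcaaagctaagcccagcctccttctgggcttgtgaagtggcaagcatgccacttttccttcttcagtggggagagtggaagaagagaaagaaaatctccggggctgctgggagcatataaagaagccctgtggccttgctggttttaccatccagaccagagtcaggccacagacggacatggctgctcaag
The promoters of Cxcl9 (chr5:92328030-92328329, minus strand) and Cxcl10 (chr5:92348840-92349139, minus) read:
Cxcl9: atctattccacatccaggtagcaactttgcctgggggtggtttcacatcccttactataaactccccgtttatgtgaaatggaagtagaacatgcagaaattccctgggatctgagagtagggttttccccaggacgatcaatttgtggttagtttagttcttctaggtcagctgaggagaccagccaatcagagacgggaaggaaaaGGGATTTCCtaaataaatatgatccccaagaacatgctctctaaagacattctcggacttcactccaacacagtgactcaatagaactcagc
Cxcl10: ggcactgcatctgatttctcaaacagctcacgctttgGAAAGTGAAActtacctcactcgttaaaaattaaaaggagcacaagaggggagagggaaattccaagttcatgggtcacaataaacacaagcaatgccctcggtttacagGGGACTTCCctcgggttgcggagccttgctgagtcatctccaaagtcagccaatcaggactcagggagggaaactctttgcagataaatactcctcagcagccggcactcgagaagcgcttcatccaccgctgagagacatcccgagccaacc
Cxcl1 and Cxcl2 held the same 10-base match, GGGAATTTCC, beginning 71 and 97 bases before the start, where 0.411% of 32851 promoters hold the motif. Cxcl3, the neighbouring ligand that is not among the 10, held it 73 bases before its start (chr5:90786003-90786062, plus strand):
Cxcl3: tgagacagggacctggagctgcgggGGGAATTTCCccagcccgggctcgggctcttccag
Cxcl9 and Cxcl10 each held a 9-base match, 42 and 103 bases before the start (1.68% of promoters), and Cxcl10 held an interferon response element match at 213 bases (3.44% of promoters). The androgen receptor hexamer AGAACA (19.0% of promoters) was also searched and is not capitalised. It lay 164 and 14 bases before the start of Cxcl9 and, on the opposite strand, 193 bases before that of Cxcl14. Cxcl15 and Cxcl12 held none of the 4 motifs, and Cxcl14 held an interferon response element match at 172 bases. The motifs were chosen after the promoters were read, a match is a description of letters and not a binding site, and Cxcl5, Cxcl16 and Cxcl17 were not searched. Looser forms of the kappaB motif were not searched in any promoter.

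The first comparison asks how these transcripts stood after 6 weeks without testicular androgen. Of the 10 genes 6 rose in castrated cells and none fell: Cxcl2, Cxcl5 and Cxcl15 of the neutrophil-attracting ligands, Cxcl9 of the interferon-induced ligands, and Cxcl16 and Cxcl17 of the mucosal ligands. Of all genes 8.01% were called, 4.82% as higher and 3.19% as lower. The median difference of the 10 was 1.80, against 0.04 over all genes. In 8 of the 10 the castrated arrays all lay above the intact arrays, as in 17.4% of all genes (in 11.5% they all lay below, 28.9% in either direction).

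**Figure D1:**
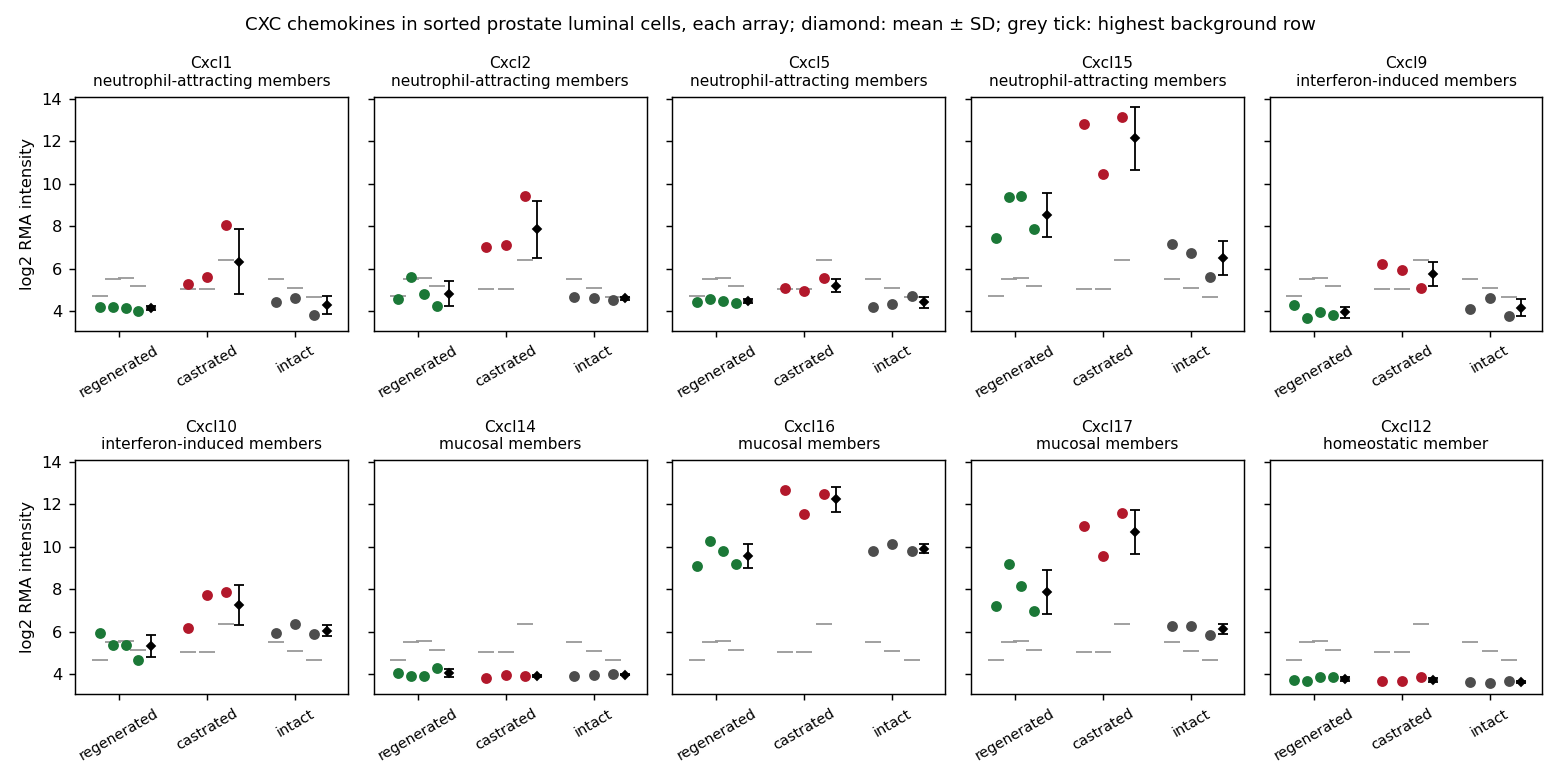
Log2 RMA intensity (vertical axis) of each CXC chemokine gene in every array of the regenerated, castrated and intact groups, with the mean ± SD as a diamond and the highest background row of each array as a grey tick. Cxcl15, Cxcl16 and Cxcl17 lay above background in all 10 arrays, Cxcl12 and Cxcl14 in none, and Cxcl1 in the 3 castrated arrays only.

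Cxcl15 had the largest difference of the 10. Known as lungkine, it is a mouse ligand made by lung and other mucosal epithelium that attracts neutrophils. It was 12.81, 10.44 and 13.12 in castrated replicates 1, 2 and 3, against 7.15, 6.72 and 5.61 in intact replicates 1, 2 and 3. The lowest castrated array stood more than 3 log2 above the highest intact array, and every array was above background. The difference was 5.63 ± 0.77 log2 (SE), or 49.5-fold (limma adjusted p = 0.00179).

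Cxcl2, also called MIP-2, is a Cxcr2 ligand released early after injury or infection. It was 7.02, 7.10 and 9.41 in castrated arrays, against 4.66, 4.63 and 4.53 in intact arrays. The intact arrays were tightly grouped and all under background, so the size of the difference depends on that floor. Castrated replicate 3 was higher than the other castrated arrays. The difference was 3.24 ± 0.56 log2 (limma adjusted p = 0.00622), and 2.45 without castrated replicate 3.

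Cxcl1, or KC, is the closest relative of Cxcl2 among the 10 and acts on the same receptor. It was 5.26, 5.61 and 8.07 in castrated arrays and 4.44, 4.63 and 3.80 in intact arrays. The groups did not overlap, yet castrated replicate 3 again stood far above its replicates and the call was missed (2.02 ± 0.58 log2, 95% interval 0.75 to 3.30, limma adjusted p = 0.0587). It passed without castrated replicate 3, at a smaller difference of 1.15 (adjusted p = 0.0178), and without castrated replicate 1 (2.55, adjusted p = 0.0287).

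Cxcl5, or LIX, an epithelial Cxcr2 ligand, was 5.08, 4.95 and 5.56 in castrated arrays and 4.19, 4.34 and 4.71 in intact arrays. These levels were close to background, with 1 castrated and 1 intact array above it. Its rise was the smallest of the 6, at 0.78 ± 0.17 log2 (limma adjusted p = 0.0193). It no longer passed without intact replicate 1 (adjusted p = 0.0921), intact replicate 2 (0.0785) or castrated replicate 3 (0.051).

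The interferon-induced pair is known to recruit cells that carry Cxcr3. Cxcl9 was 6.20, 5.95 and 5.10 in castrated arrays, against 4.09, 4.61 and 3.79 in intact arrays. All castrated arrays were higher, with replicate 3 the lowest of them and under its own array's background, and the intact arrays were all under background. The rise was 1.58 ± 0.29 log2 (limma adjusted p = 0.00814). Cxcl10 was 6.20, 7.74 and 7.86 in castrated arrays and 5.94, 6.36 and 5.88 in intact arrays. Castrated replicate 1 fell within the intact range, and the difference did not pass (1.21 ± 0.43 log2, 95% interval 0.26 to 2.15, limma adjusted p = 0.128). Without that array it was 1.74 (adjusted p = 0.0147).

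Of the mucosal ligands, Cxcl17 attracts myeloid cells to mucosal tissue. It was 10.98, 9.56 and 11.59 in castrated arrays, against 6.27, 6.28 and 5.88 in intact arrays. Every castrated array exceeded every intact array by more than 3 log2, and castrated replicate 2 was the lowest of its group, as it was for Cxcl15. The rise was 4.57 ± 0.61 log2, or 23.7-fold (limma adjusted p = 0.00159).

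Cxcl16 is made as a membrane-anchored protein whose chemokine domain binds Cxcr6 and scavenges oxidised lipoprotein, and it can be shed as a soluble ligand. It was 12.68, 11.56 and 12.47 in castrated arrays and 9.83, 10.15 and 9.80 in intact arrays. It was well above background throughout, and replicate 2 was again the lowest castrated array. The rise was 2.31 ± 0.38 log2, or 4.96-fold (limma adjusted p = 0.00473).

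The remaining ligands stayed under background in all 10 arrays. Cxcl14, a ligand common in skin and other squamous epithelium, averaged 3.92 ± 0.06 in castrated and 3.99 ± 0.03 in intact arrays (-0.07 ± 0.11 log2, limma adjusted p = 0.806). Cxcl12, the stromal ligand of Cxcr4, averaged 3.75 ± 0.10 in castrated and 3.64 ± 0.04 in intact arrays (0.11 ± 0.08 log2, limma adjusted p = 0.5). Its groups did not overlap, but a difference under background has no clear size.

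An exact two-sided permutation test over 3 against 3 arrays cannot give less than 0.1, and all 8 genes whose castrated arrays lay above the intact ones reached that value (exact permutation p = 0.1), while Cxcl10 and Cxcl14 were at 0.2. Groups that do not overlap always give the smallest value, so for the 8 the test only restates the lack of overlap. Cxcl2, Cxcl9, Cxcl15, Cxcl16 and Cxcl17 were called whichever array was left out.

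**Figure D2:**
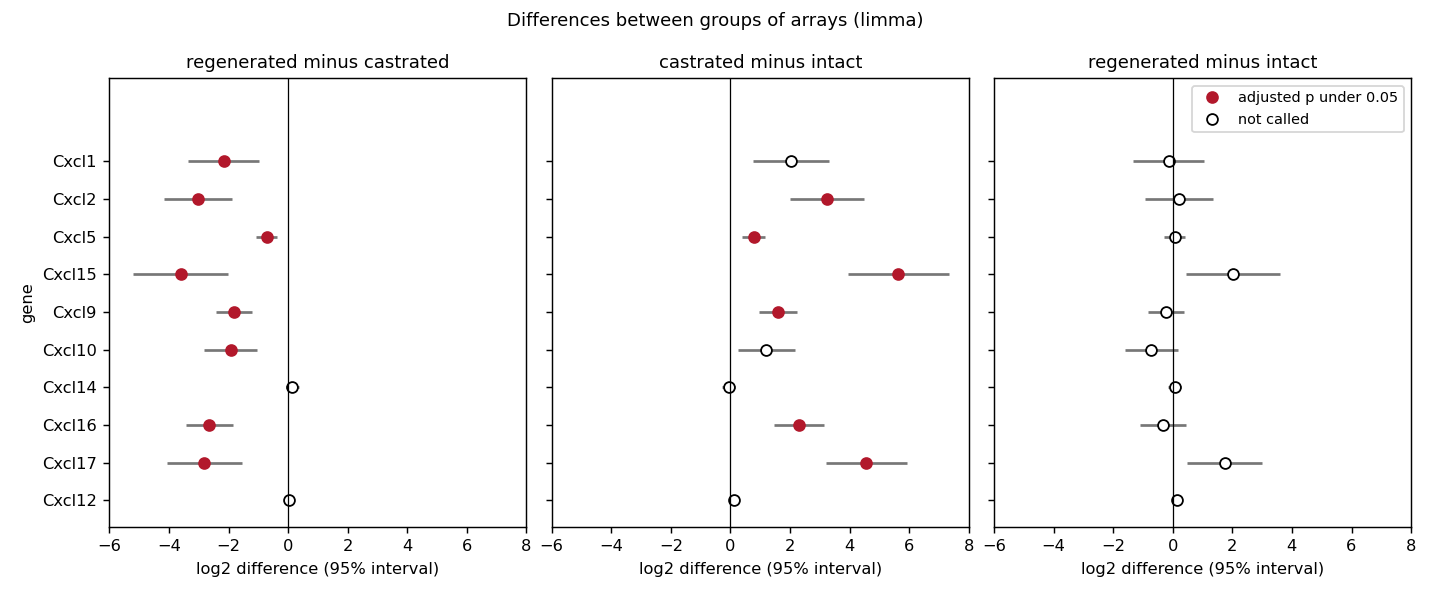
Log2 difference with its 95% interval (horizontal axis) for each CXC chemokine gene (vertical axis) in 3 comparisons from limma, with filled points where the adjusted p was under 0.05. The 8 filled points in regenerated against castrated arrays lie left of 0, the 6 in castrated against intact arrays lie right of 0, and no point is filled in regenerated against intact arrays.

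Neighbouring genes of the chromosome 5 run differed widely. From Cxcl5 the castrated minus intact difference was 0.78, then 0.39 ± 0.10 for Ppbp (limma adjusted p = 0.0461, lost in 8 of the 10 fits that left out 1 array, with adjusted p up to 0.17), 0.42 for Pf4 and 0.28 for Cxcl3, after which it was 5.63 for Cxcl15, 2.02 for Cxcl1 and 3.24 for Cxcl2. Ppbp and Pf4 encode platelet chemokines, and both were under background in all arrays, as was Cxcl3. Cxcl3 thus carries the same 10-base kappaB match as Cxcl1 and Cxcl2, but it was 4.76, 4.80 and 5.03 in castrated and 4.65, 4.54 and 4.54 in intact arrays (0.28 ± 0.11 log2, adjusted p = 0.18). In the second run Art3, an ADP-ribosyltransferase gene named here for its position, differed by 0.83 ± 0.23 (adjusted p = 0.0487), between 1.58 for Cxcl9 and 1.21 for Cxcl10, and Cxcl11, annotated as a transcribed pseudogene, by 0.25 (adjusted p = 0.114).

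**Figure D3:**
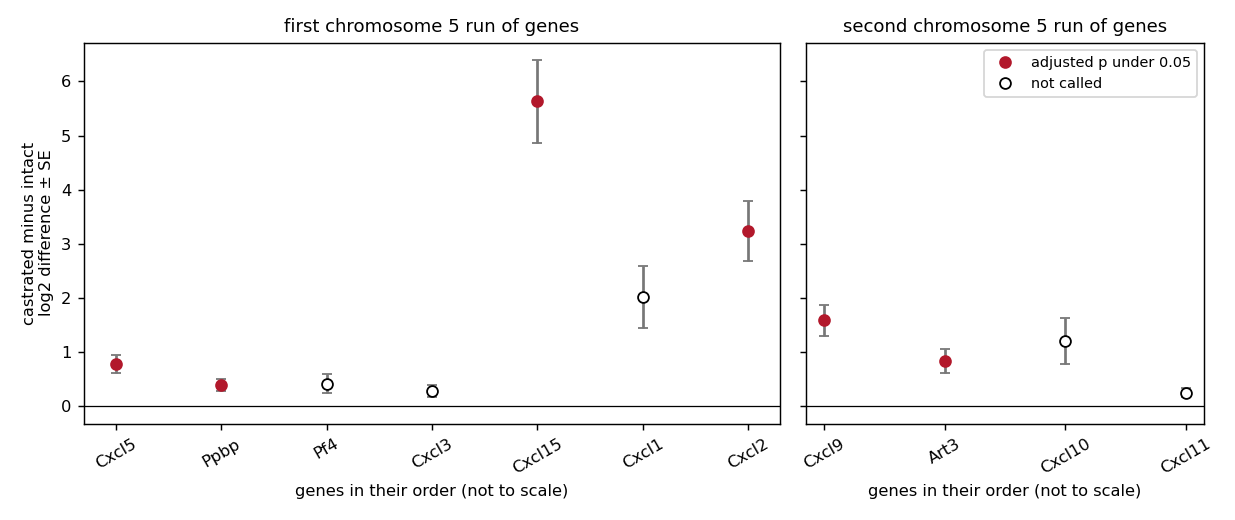
Castrated minus intact log2 difference ± SE (vertical axis) of the genes of both chromosome 5 runs, in RefSeq order and not to scale, with filled points where the limma adjusted p was under 0.05. Cxcl15, Cxcl1 and Cxcl2, at one end of the first run, differed by 2.02 to 5.63, against 0.28 to 0.78 for the other 4 genes.

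Receptors and other ligands were measured in the same cells. Of 5 other CXC ligands 1 rose, Ppbp, and none fell. Cxcl13, a B cell attractant, was 6.64, 5.33 and 6.88 in castrated and 4.77, 4.68 and 4.88 in intact arrays (1.51 ± 0.43 log2, limma adjusted p = 0.0614). Without castrated replicate 2 it was 1.98 (adjusted p = 0.0177), and it also passed without regenerated replicate 3 (adjusted p = 0.0442) or 4 (0.0333). None of 7 CXC receptors passed limma's test (none had an unadjusted p under 0.05), and 6 of them, Cxcr2, Cxcr3 and Cxcr6 included, were under background in all 10 arrays. Cxcr4, the receptor of Cxcl12, was 5.86, 3.89 and 5.32 in castrated and 4.40, 3.84 and 3.95 in intact arrays, which overlap (0.96 ± 0.55 log2, adjusted p = 0.38). Adam10 and Adam17, the proteases that shed Cxcl16, differed by 0.47 ± 0.32 and 0.35 ± 0.28 (adjusted p = 0.473 and 0.558).

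Genes that act upstream of these ligands were counted from lists that were likewise drawn up with earlier results known. Of all genes 4.82% rose and 3.19% fell in this comparison, the shares to set beside each list count here and below. Of 16 genes of the NF-kB and cytokine route 5 rose and none fell (median difference 0.68). The called genes with the largest differences were Tlr4, the lipopolysaccharide receptor, at 1.99 ± 0.24 log2 (limma adjusted p = 0.00088), Nfkbia, the NF-kB inhibitor and target, at 1.70 ± 0.37 (0.0194), the cytokine gene Tnf at 1.68 ± 0.24 (0.0023) and the NF-kB subunit Rela at 1.67 ± 0.36 (0.0191). Tnf was 7.10, 6.79 and 7.44 in castrated arrays and 5.82, 5.37 and 5.11 in intact arrays. Tlr4 was 7.25, 7.98 and 7.22 in castrated arrays and 5.77, 5.13 and 5.58 in intact arrays. Neither gene's groups overlapped, as in 28.9% of all genes (17.4% with the castrated arrays above, 11.5% below). Castrated replicate 3, highest for Cxcl1 and Cxcl2, was also the highest castrated array for Tnf and Nfkbia (12.71, 12.69 and 13.53). It was the lowest for Tlr4 and Rela (11.90, 10.84 and 10.70). Nfkbia lost its call without intact replicate 3 (adjusted p = 0.0533) or castrated replicate 3 (0.0695), and Rela without intact replicate 2 (0.0761) or 3 (0.0606).

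In the interferon route 2 of 12 genes rose and none fell (median 0.20), where 4.82% of all genes rose. They were the transcription factor genes Irf9, at 1.45 ± 0.31 log2 (limma adjusted p = 0.0187), and Irf1, at 1.12 ± 0.20 (0.00697). Irf9 lost its call without intact replicate 1 (adjusted p = 0.0878) or 2 (0.0818), or castrated replicate 1 (0.0617) or 3 (0.057). Ifng itself was under background in every array, at 3.41 ± 0.12 in castrated and 3.41 ± 0.09 in intact arrays. In the list of immediate early genes, which tissue dissociation can induce, 1 of 7 rose, Ier3 by 1.01 ± 0.14 (limma adjusted p = 0.00229), and its levels were under background. The summed level of that list was 18.88 to 19.38 log2 in castrated and 18.15 to 18.74 in intact arrays, and its part in the chemokine differences was not tested.

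**Figure D4:**
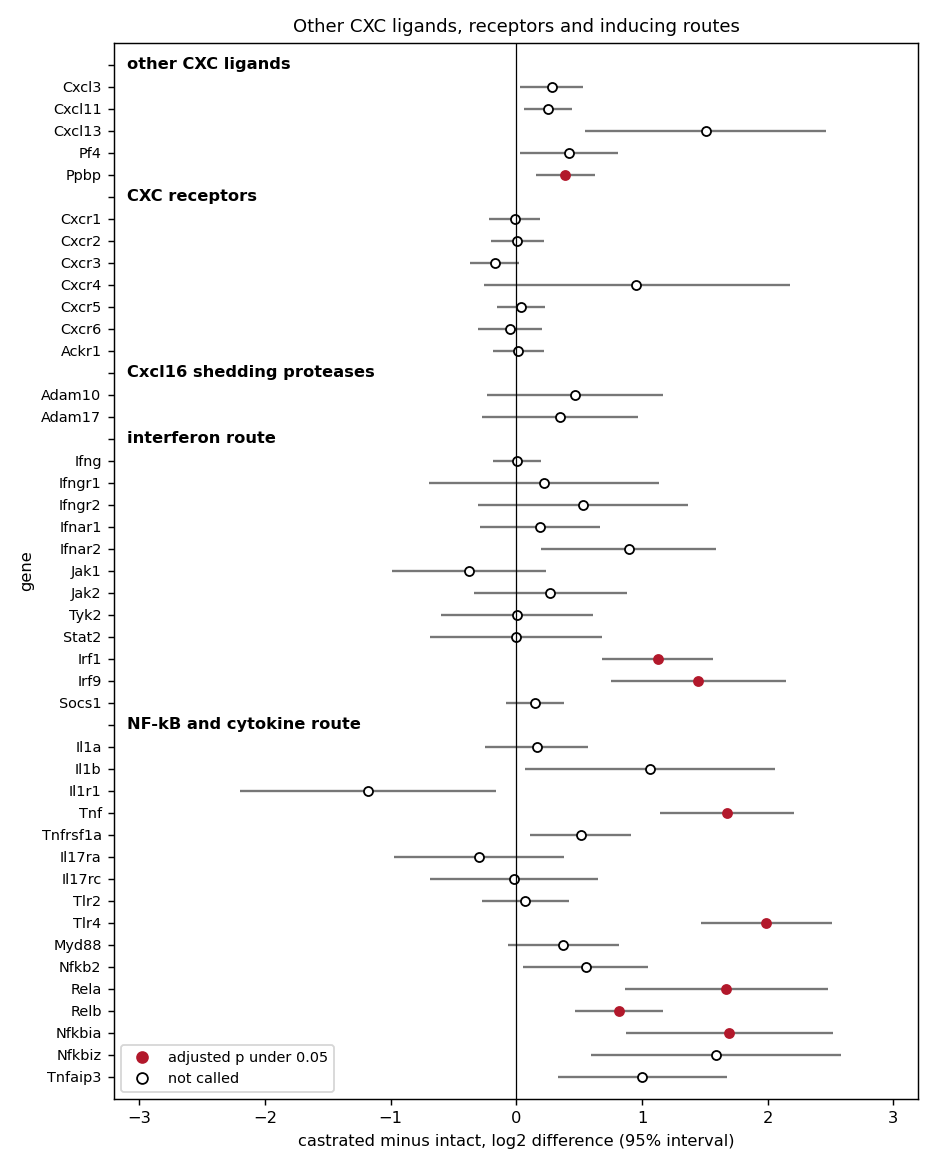
Castrated minus intact log2 difference with its 95% interval (horizontal axis) for genes of 5 lists (vertical axis): other CXC ligands, CXC receptors, proteases that shed Cxcl16, the interferon route and the NF-kB and cytokine route. Filled points have a limma adjusted p under 0.05 and number 1, 0, 0, 2 and 5 in these lists.

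Leukocytes also make several of these ligands, so markers of other cells are given beside them. In bulk samples fewer cells of a type and less RNA per cell cannot be told apart. Of 11 neutrophil markers none was called (1 had an unadjusted p under 0.05 in limma), and 8, among them Ly6g, S100a8, Csf3r and Mpo, were under background in all 10 arrays. The summed level of the list was 7.60 to 14.72 log2 in castrated and 7.56 to 7.96 in intact arrays, and the top value came from Ltf, the lactoferrin gene that glandular epithelium also expresses, at 14.71 in castrated replicate 3. That array also had the highest Cxcl1, Cxcl2, Cxcl5, Cxcl10, Cxcl15 and Cxcl17, and the part of Ltf-expressing cells in those values was not tested. Of 10 macrophage and general leukocyte markers 7 were under background throughout, including Ptprc and Adgre1, and 1 rose, Itgam, under background. Cd68 was above background in all 10 arrays, at 9.70, 9.13 and 7.92 in castrated and 8.58, 9.31 and 6.92 in intact arrays (limma adjusted p = 0.65). Lyz2 was above it in 1 castrated, 1 intact and 1 regenerated array, and C1qa in 1 castrated and 1 intact array. The summed level of that list was 8.68 to 10.07 in castrated and 8.49 to 9.60 in intact arrays. Of 9 T and NK cell markers 8 were under background, including Cd3d, Cd3g, Cd4 and Cd8a. The exception was Cd3e, at 11.32, 11.76 and 8.26 in castrated and 7.58, 8.18 and 5.40 in intact arrays (limma adjusted p = 0.0507), and the summed level of the list was 8.80 to 11.81 in castrated and 7.34 to 8.68 in intact arrays. All 5 endothelial markers and 7 of 8 stromal markers were under background, while the list's 1 call was a fall of Dcn.

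Markers of proximal luminal and urothelial cells also differed, but not all in the same direction. Of 5 in castrated arrays 3 rose, Ly6d, Upk1b and Upk3a, and 1 fell, Psca (-2.815 ± 0.419 log2, limma adjusted p = 0.0028). Their summed level was 15.49 to 15.87 log2 in castrated and 11.14 to 11.28 in intact arrays. In castrated arrays the sum rested mainly on Upk1b, at 15.80, 15.44 and 15.54, against 9.68, 10.07 and 10.37 in intact arrays. Whether a shift toward such cells has a part in the chemokine differences was not tested.

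Luminal and basal markers differed as well. Of 6 luminal markers 3 rose in castrated arrays, Krt8 by 1.37 ± 0.35 log2 (limma adjusted p = 0.0364), Krt18 by 1.41 ± 0.18 (0.00119) and Cd24a, which encodes an antigen of the sort, by 1.72 ± 0.27 (0.00358), and 1 fell, Hoxb13. The summed luminal level was 19.12 to 19.57 in castrated and 17.91 to 18.32 in intact arrays. Of 4 basal markers 1 rose, Krt14 by 0.52 ± 0.14 (limma adjusted p = 0.046), and the basal sum was 10.53 to 11.60 in castrated and 9.90 to 10.14 in intact arrays. That sum rested mainly on Krt15, at 11.44, 11.56 and 10.43 in castrated and 9.80, 10.01 and 10.04 in intact arrays. The part of either shift in the chemokine differences was not tested.

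The second comparison asks how the ligands stood once regressed mice had received testosterone. Of the 10 genes 8 fell in regenerated relative to castrated cells and none rose, and in each of the 8 all regenerated arrays lay below all castrated arrays. Of all genes 4.98% were called, 3.01% as lower and 1.97% as higher. In 9.51% every regenerated array lay below every castrated array and in 6.53% above (16% in either direction). This comparison and the first share the castrated arrays, so their values are not independent of each other. The median difference of the 10 was -2.05, against -0.01 over all genes.

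Among the neutrophil-attracting ligands Cxcl15 was 7.42, 9.37, 9.42 and 7.86 in regenerated replicates 1, 2, 3 and 4, against a castrated mean of 12.12 ± 1.47 (SD, n = 3). Replicates 2 and 3 were higher than 1 and 4, and all lay below the lowest castrated array. The gene fell by 3.61 ± 0.72 log2 (limma adjusted p = 0.0175). Cxcl2 was 4.58, 5.62, 4.81 and 4.24 in regenerated arrays, where replicate 2 alone was above background, against 7.84 ± 1.36 in castrated arrays. It fell by 3.03 ± 0.52 (limma adjusted p = 0.00842). Cxcl1 was 4.22, 4.21, 4.14 and 4.02 in regenerated arrays, all under background, against 6.31 ± 1.53 in castrated arrays, and fell by 2.17 ± 0.54 (limma adjusted p = 0.0463), or by 1.29 without castrated replicate 3. Cxcl5 was 4.45, 4.58, 4.50 and 4.38, against 5.20 ± 0.32 in castrated arrays, and fell by 0.72 ± 0.16 (adjusted p = 0.0293).

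Both interferon-induced ligands fell. Cxcl9 was 4.29, 3.68, 3.95 and 3.82 in regenerated arrays, all under background, against 5.75 ± 0.57 in castrated arrays. Its drop was 1.81 ± 0.27 log2 in size (limma adjusted p = 0.00373). Cxcl10 was 5.94, 5.37, 5.40 and 4.66 in regenerated arrays against 7.27 ± 0.93 in castrated arrays, a difference of -1.92 ± 0.40 log2 (limma adjusted p = 0.0215). Of its regenerated arrays 1 was above background and 3 were under it, so the size of the drop depends on that floor. Its groups did not overlap here, whereas those of castrated and intact arrays did.

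Of the mucosal ligands Cxcl16 was 9.10, 10.28, 9.81 and 9.17 in regenerated arrays, against 12.24 ± 0.59 in castrated arrays. It fell by 2.65 ± 0.35 log2 (limma adjusted p = 0.00207), with the lowest adjusted p of the 10. Cxcl17 was 7.22, 9.22, 8.16 and 6.97 in regenerated arrays, against 10.71 ± 1.04 in castrated arrays. Regenerated replicate 2 came within 0.5 log2 of the lowest castrated array, and the gene fell by 2.82 ± 0.57 (limma adjusted p = 0.0188). Cxcl14 and Cxcl12 were again under background (0.14 ± 0.10 and 0.05 ± 0.07 log2, adjusted p = 0.508 and 0.811).

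Cxcl2, Cxcl9 and Cxcl16 were called as lower whichever array was left out. Cxcl15 and Cxcl17 lost their calls without castrated replicate 1 (limma adjusted p = 0.0652 and 0.0639) or castrated replicate 3 (0.0719 and 0.0744). Cxcl10 lost its call without castrated replicate 2 (0.092) or 3 (0.0855) or regenerated replicate 2 (0.0581) or 3 (0.0529). Cxcl1 kept its call only without castrated replicate 1 or castrated replicate 3 (adjusted p up to 0.105 without another array), and Cxcl5 only without intact replicate 1, intact replicate 3, castrated replicate 2 or regenerated replicate 4 (up to 0.0845). The exact permutation test over 4 against 3 arrays gave its smallest possible value for each of the 8 genes (exact permutation p = 0.0571), as it must where groups do not overlap.

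The upstream lists were counted in the same comparison, where 3.01% of all genes fell. Of 16 genes of the NF-kB and cytokine route 6 fell, none rose and 10 were not called (median -0.74), and of 12 interferon route genes 1 fell, Irf1 (-0.98 ± 0.19 log2, limma adjusted p = 0.0138, list median -0.25). Tnf fell by 1.91 ± 0.23 (adjusted p = 0.0011) and Tlr4 by 2.00 ± 0.22 (0.000747). None of 7 receptors was called by limma, and none had an unadjusted p under 0.05. Of the immediate early genes 2 of 7 fell, and their summed level was 17.15 to 18.45 log2 in regenerated and 18.88 to 19.38 in castrated arrays, a shift whose part in the chemokine differences was not tested. Neutrophil markers summed to 7.81 to 10.52 in regenerated and 7.60 to 14.72 in castrated arrays. T and NK cell markers summed to 7.39 to 8.17 in regenerated and 8.80 to 11.81 in castrated arrays. Of these 9 markers Cd3e fell, and the other 8 were under background in all arrays. Of the proximal luminal and urothelial markers 3 of 5 fell and 1, Psca, rose (3.91 ± 0.39 log2, limma adjusted p = 0.000459). Their summed level was 12.25 to 14.50 in regenerated and 15.49 to 15.87 in castrated arrays. Of the luminal markers Krt8 and Krt18 fell and Hoxb13 rose, with a summed level of 17.83 to 18.15 in regenerated and 19.12 to 19.57 in castrated arrays. The part of these shifts in the chemokine differences was not tested.

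The third comparison asks whether the regenerated cells differed from cells that had never been castrated. None of the 10 genes was called by limma, and 0.0365% of all genes were called (0.0332% higher and 0.00332% lower). An unadjusted limma p under 0.05 was reached by 2 of the 10, and by 3019 of all 30142 genes. Those 2 were Cxcl15 and Cxcl17. Every regenerated value of Cxcl15, given above, exceeded the highest intact value of 7.15 (8.52 ± 1.03 in regenerated and 6.49 ± 0.80 in intact arrays, 2.02 ± 0.72 log2, 95% interval 0.44 to 3.61, limma adjusted p = 0.365). Every regenerated value of Cxcl17 likewise exceeded the highest intact value of 6.28 (7.89 ± 1.02 and 6.14 ± 0.23, 1.75 ± 0.57 log2, 95% interval 0.49 to 3.01, adjusted p = 0.322). Cxcl12 did not overlap either, under background, and in 6.42% of all genes the regenerated arrays all lay above the intact ones (in 3.23% below, 9.65% in either direction).

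The summed levels of 2 epithelial marker lists were higher in the same regenerated arrays, though no gene of these lists was called. Proximal luminal and urothelial markers summed to 12.25 to 14.50 log2 in regenerated and 11.14 to 11.28 in intact arrays. Of them Upk1b, a urothelial plaque protein gene, differed by 3.26 ± 0.55 (limma adjusted p = 0.106). Krt4, Psca and Ly6d differed by 1.285, 1.095 and 0.344. Upk3a differed by -0.076 and was under background in all regenerated and intact arrays. Basal markers summed to 11.46 to 14.02 in regenerated and 9.90 to 10.14 in intact arrays, with the keratin gene Krt15 at a difference of 2.53 ± 0.58 (adjusted p = 0.255). That sum rested on Krt15, while Krt5, Krt14 and Trp63 differed by -0.035, 0.17 and 0.215, with Trp63 under background throughout. The groups overlapped in neither sum, nor for Upk1b or Krt15, and the part of these markers in the Cxcl15 and Cxcl17 values was not tested. Among the 7 receptors none was called, and 1 had an unadjusted p under 0.05. It was Cxcr4, at 4.89, 5.36, 6.80 and 6.42 in regenerated and 4.40, 3.84 and 3.95 in intact arrays, which did not overlap (1.80 ± 0.51 log2, limma adjusted p = 0.273).

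For the other genes regenerated and intact values lay close together, and several were at the background floor. Regenerated minus intact differences were -0.14 for Cxcl1 (95% interval -1.33 to 1.05), 0.21 for Cxcl2 (-0.95 to 1.37), 0.06 for Cxcl5 (-0.29 to 0.42) and -0.23 for Cxcl9 (-0.82 to 0.37). Cxcl10 was lower in regenerated arrays in mean (5.34 ± 0.52, against 6.06 ± 0.26 in intact arrays, -0.72, interval -1.60 to 0.17, limma adjusted p = 0.612). Cxcl16 differed by -0.34 (-1.12 to 0.45). Cxcl1 and Cxcl9 were under background in all regenerated and intact arrays, Cxcl2 was above it in 1 regenerated and no intact array, and Cxcl5 in no regenerated and 1 intact array. Their intervals therefore compare values near the floor and set no limit on a difference in transcript level. For Cxcl16, above background throughout, a drop of 1 log2 lies within the interval.

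Ordered by mean level, all 8 ligands that changed were highest in castrated arrays. The order was castrated, regenerated, intact for Cxcl15 and Cxcl17, and castrated, intact, regenerated for Cxcl10 and Cxcl16. Regenerated and intact arrays have no order for Cxcl1, Cxcl2, Cxcl5 and Cxcl9, which were at or near background in both. Regenerated and intact were not separated by the test for any of them, and castrated and intact were not for Cxcl1 and Cxcl10.

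Genes with the profile nearest to a ligand were ranked by the root mean square difference of their log2 values over the 10 arrays, each gene centred on its own mean. Nearest to Cxcl15 were Slc34a2, a phosphate transporter gene (0.56 log2), Cxcl17 (0.62), the carbonic anhydrase-related gene Car8 (0.79), Gabrp, a GABA-A receptor subunit gene (0.79), and F3, the tissue factor gene (0.89). Nearest to Cxcl17 were Cyba, an NADPH oxidase subunit gene (0.60), the kinase gene Plk2 (0.62), Cxcl15 (0.62), Slc34a2 (0.63) and Car8 (0.63). The mucosal and the neutrophil-attracting leader were thus among each other's nearest 5 of all protein-coding genes ranked. Nearest to Cxcl10 were Rpl12, Ndufaf7, Smim15, Mss51 and Twistnb (0.44 to 0.49), none of them a gene of the interferon list, and the 5 nearest to Cxcl12 (Mogat1, Acp7, Tcl1b3, Pbk and Antxrl, 0.04 to 0.05) had, like it, mean levels under 4 in every group.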

How the data were processed

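Total RNA of 10 sorted samples was labelled with the Affymetrix WT Plus kit and hybridised to ClariomD arrays, per the labels' protocols. The authors deposited log2 values. The submitters' processing notes name RMA and Affymetrix Expression Console, with versions and build not given in the sources used here. Quantile normalization within RMA assumes that most transcripts keep their overall distribution. Of 65956 non-control rows, 30604 carried 1 gene symbol, 2146 several and 33206 none in the platform annotation, and 827 symbols were updated through gene identifiers; where a gene had more than 1 row, only that of highest mean entered, leaving 30142. All 10 arrays were fitted in 1 limma model (R 4.3.3, limma 3.58.1; trended eBayes, 7 residual degrees of freedom), with Benjamini-Hochberg adjustment over all genes and a threshold of 0.05. The procedure was tested on simulated data. The number of arrays limits precision. Files give no scan or hybridisation batch that was used here. All 10 chemokines were named; from pathway lists, up to 4 called genes with the largest castrated minus intact change (2 where none passed); other ligands, receptors and proteases freely; and the 5 nearest profiles of the widest-ranging gene of each class. Art3 was named for its position and the marker genes as examples. The chemokines, the lists and the tests were chosen with earlier results of these data known. Alternatives were another variance prior, arrays fitted, array weights, a replicate block, median centring, a background filter, row averaging, all rows, a 1 log2 minimum and leaving out each array.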

Additional observations from a re-analysis of the deposited data

Results flagged for a closer look

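Of 59 genes checked in the 4 regenerated arrays, 4 had an array that stood apart from the other 3, where chance gives about 1 in 20. Adam17, a protease that sheds Cxcl16, was 8.058 in regenerated replicate 3 and 7.331 to 7.435 in the others. Ifngr2, an interferon gamma receptor subunit gene, was 8.125 in regenerated replicate 4 and 9.197 to 9.417 in the others. The immediate early gene Fos was 12.502 in regenerated replicate 3 and 13.424 to 13.538 in the others. Fosb, of the same family, was 16.67 in regenerated replicate 3 and 17.85 to 18.006 in the others.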

How the results depend on the processing

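Cxcl2, Cxcl9 and Cxcl16 kept their calls in castrated against intact and in regenerated against castrated arrays under every alternative that tested them, and Cxcl15 and Cxcl17 kept theirs in castrated against intact arrays. For castrated against intact, 2414 genes were called, 4258 with array weights and 1019 to 3271 leaving out 1 array, with 5 to 8 of the chemokines called. For regenerated against castrated, 1500 genes were called, 822 from the arrays of both groups alone and 816 to 2127 leaving out 1 array. The 8 chemokine calls there became 5 from the arrays of both groups alone, 5 (of 5 tested) among genes above background and 4 to 7 leaving out 1 array. For regenerated against intact, 11 genes were called, 2 without the variance trend, 0 from the arrays of both groups alone, 70 with array weights, 3 after median centring, 22 among genes above background, 0 over every non-control row and 0 to 78 leaving out 1 array; the chemokine count stayed at 0. Replicate numbers were not used to pair the samples in the main fit. Same-numbered arrays correlated between -0.158 and 0.339 in their deviations from group means, and differently numbered arrays between -0.299 and 0.296. With so few arrays in each group this check cannot exclude pairing. With the replicate block, 4 chemokines were called in regenerated against castrated arrays and 4 genes in regenerated against intact arrays. Regenerated minus intact differences changed sign for Cxcl14 with the replicate block (-0.015) and without regenerated replicate 4 (-0.015), for Cxcl5 without intact replicate 1 (-0.047), for Cxcl1 without intact replicate 2 (0.028) and for Cxcl2 without regenerated replicate 2 (-0.057). Leaving out 1 array gave -0.015 to 0.121 for Cxcl14, -0.047 to 0.211 for Cxcl5, -0.387 to 0.028 for Cxcl1 and -0.057 to 0.4 for Cxcl2. The cause of these shifts was not tested beyond the smaller number of arrays or genes that some settings use. Signal over background limits Cxcl12 and Cxcl14 in all arrays, Cxcl1 and Cxcl9 in all regenerated and intact arrays, Cxcl2 in 3 of 4 regenerated and all intact arrays, Cxcl10 in 3 of 4 regenerated arrays, and Cxcl5, above background in 2 of 10 arrays, nearly throughout.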

Other observations

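Among 91 tested genes whose promoter held the 10-base kappaB motif, 17 rose and 3 fell in castrated relative to intact arrays (18.7% and 3.30%), against 4.82% and 3.19% of all genes, and their median difference was 0.06. In regenerated relative to castrated arrays 13 of them fell and 3 rose (14.3% and 3.30%), against 3.01% and 1.97% of all genes. Of 379 genes with the 9-base kappaB motif, which Cxcl9 and Cxcl10 carry, 29 rose (7.65%) and 12 fell (3.17%) in castrated arrays. Of 692 genes with an interferon response element match, 45 rose (6.50%) and 22 fell (3.18%), and of 3449 genes with the androgen receptor hexamer 143 rose (4.15%) and 105 fell (3.04%). These are counts without a test, and the motifs were picked after the chemokine promoters were read. Cxcl2 is among the 17, Cxcl1 and Cxcl2 are among the 13, and Cxcl9 is among the 29 and the 143. The shares of all genes include genes without a listed promoter, such as Cxcl5.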
